A study of Homo sapiens with 12 samples.

Results

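The 9 genes RRM1, RRM2, RRM2B, TYMS, DUT, TK1, DCK, SAMHD1 and DCTPP1 supply, salvage or remove the deoxynucleotides from which DNA is made. They were chosen by name from the 59251 genes in the count table of an RNA-Seq experiment in HL60 cells, and all 9 were among the 13318 genes with enough counts to be tested. HL60 is a human promyelocytic leukemia line without the PML-RARA fusion. RNA was taken from non-treated cells, cells treated with 1 µM all-trans retinoic acid (ATRA), cells treated with 1 µM palbociclib (CDK4/6i) and cells treated with both (CDK4/6i+ATRA). The drugs were given for 48 h, and each group held 3 libraries labelled as biological replicates of this single line and described by the study as independent experiments, 12 in all. The labels do not say whether the controls received vehicle. The p-values measure the spread between these libraries. The experiment asked how HL60 cells respond to a differentiating agent, a cell cycle inhibitor and both together.

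Ribonucleotide reductase makes all deoxynucleotides from ribonucleotides and pairs a large subunit, RRM1, with a small subunit, either RRM2 in S phase or RRM2B outside it and after DNA damage. TYMS makes thymidylate from the dUMP that DUT releases from dUTP, whereas TK1 and DCK return thymidine and deoxycytidine from outside the cell to the pool. SAMHD1 cleaves deoxynucleoside triphosphates and is abundant in non-dividing myeloid cells, and DCTPP1 degrades dCTP and its modified forms. Palbociclib holds RB in its active state, in which it restrains E2F, a factor known to drive many genes of DNA synthesis at the entry into S phase.

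Expression was measured as CPM (counts scaled to a common library total by edgeR's TMM method), and levels of different genes were compared only as RPKM, which also divides by exon length in kilobases. Total counts ranged from 15238994 to 18679544 per library in 3 of the groups and from 12230923 to 14415276 with CDK4/6i+ATRA, so 3 counts corresponded to 0.156 to 0.275 CPM. The TMM factors were also lowest with CDK4/6i+ATRA (0.840 to 0.893, against 1.03 to 1.07 elsewhere). The 9 genes together took 0.161% to 0.168% of the counts in non-treated cells, 0.187% to 0.192% under ATRA, 0.0386% to 0.0396% under CDK4/6i and 0.0286% to 0.0299% with both drugs. Of the promyelocyte markers, MPO was at 6517 CPM in non-treated cells, 293 after ATRA, 3469 after CDK4/6i and 28.0 after both, and CTSG was at 14.0 and, after both, 0.638 CPM. PTPRC and SPI1 of the same list went from 123 and 302 CPM to 789 and 855 CPM after both drugs, whereas ELANE, PRTN3 and AZU1 were listed at 0 in every library, each being listed on an alternate contig as well. The summed CPM of 10 mature myeloid markers was 239 to 255 in non-treated cells, 4891 to 5019 under ATRA, 704 to 731 under CDK4/6i and 6971 to 7186 with both drugs. The 9 T and B cell markers summed to 132 to 143 CPM in non-treated cells and 273 to 288 CPM after both drugs, mostly CD4 (120 and 264 CPM), which myeloid cells also express. The 6 erythroid markers summed to at most 0.125 CPM and the 8 epithelial and stromal markers to at most 1.01 CPM. In bulk RNA, fewer cells that express a gene and less of its RNA per cell cannot be told apart.

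With CDK4/6i+ATRA most of the 9 genes fell, by unequal amounts. RRM2, TYMS and TK1 fell more than 40-fold, RRM1 and DUT 11-fold and 13.5-fold, and DCK and DCTPP1 about 3-fold, whereas RRM2B and SAMHD1 rose 2.58-fold and 2.67-fold. Of the 9 genes, 7 were lower and 2 higher than in non-treated cells, against 40.7% and 41.0% of all tested genes (edgeR's quasi-likelihood test, adjusted p under 0.05). The median log2 fold change was -3.46 over the 9 genes and 0.018 over all tested genes.

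**Figure D1:**
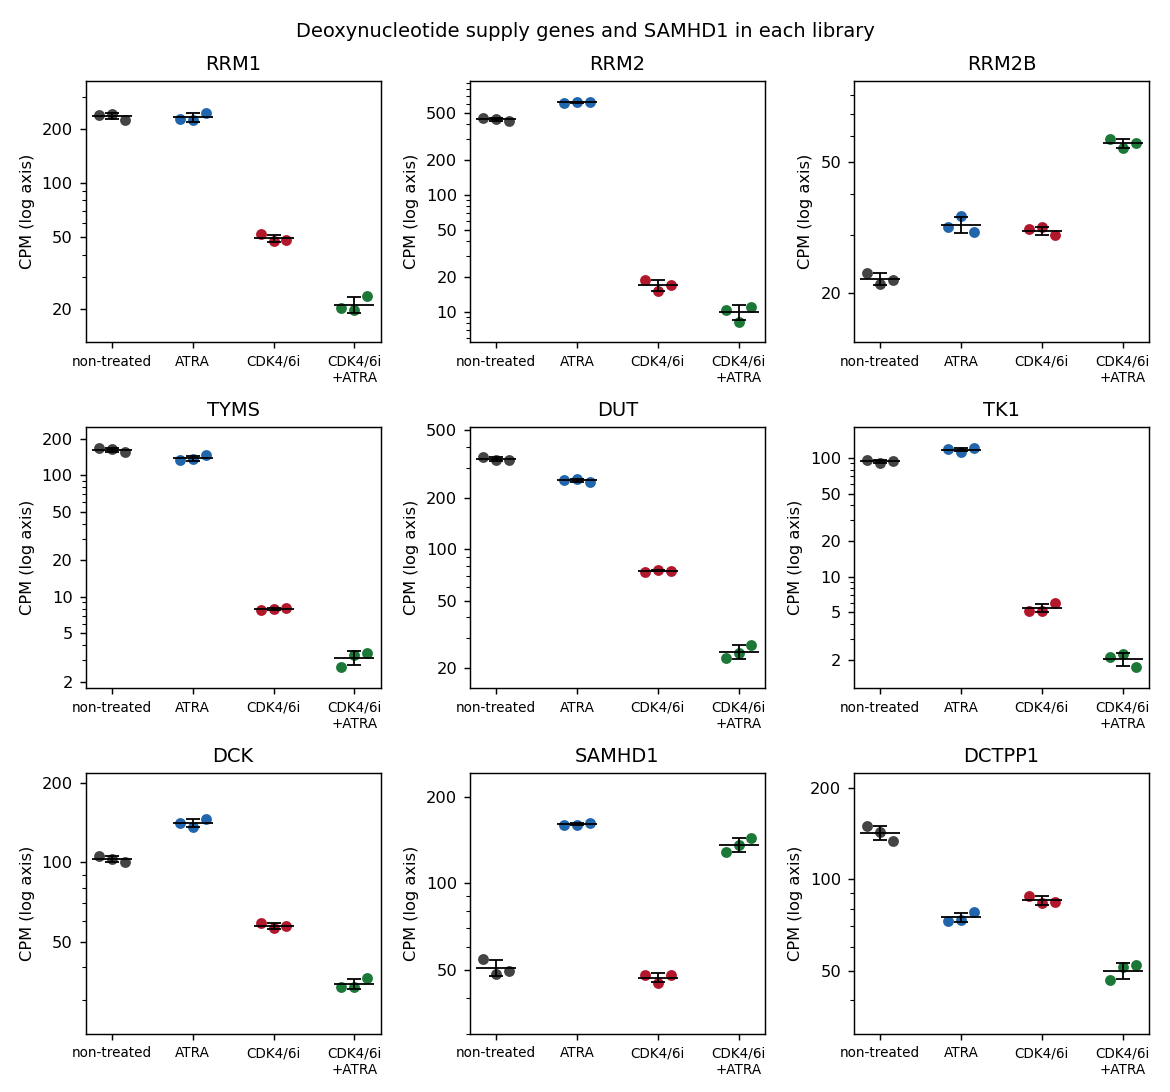
CPM of each gene in each library on a log axis, with 1 point per library, a long bar at the group mean and whiskers of 1 SD (n = 3). RRM2, TYMS and TK1 drop with CDK4/6i and again with CDK4/6i+ATRA, SAMHD1 is high in both groups that received ATRA, and RRM2B is highest with CDK4/6i+ATRA.

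The promoters of 8 of the 9 genes were found in the RefSeq table for GRCh38.p14, with 13 start sites in all, as 300 bases from 250 before to 50 after each start. The letters TTTCCCGC, TTTCGCGC, TTTGCCGC and TTTGGCGC, which E2F factors bind, were searched on both strands together with the CHR letters TTTGAA and the CCAAT box. E2F letters were in 3.31% of the 35116 promoters of the table, CHR letters in 15.2% and CCAAT in 34.6%. E2F letters were found in 3 of the 8 genes, TYMS, DUT and DCK, against 3.99% of all genes in the table. These stretches are printed in the direction of transcription, with the E2F letters or their reverse complement in capitals. The 2 DUT stretches overlap and lie before the fourth of the gene's 4 listed starts.
TYMS, chr18:657604-657631, plus strand: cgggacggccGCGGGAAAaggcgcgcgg
DUT, chr15:48332145-48332172, plus strand: ggcggggctgGCGGGAAAtttcggtttt
DUT, chr15:48332160-48332187, plus strand: aaatttcggtTTTGGCGCgctccctgcg
DCK, chr4:70993660-70993687, plus strand: ctgcctccgcGCGCCAAAgtcaaacccc

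RRM2, whose fall with CDK4/6i was the 10th lowest log2 fold change of all 13318 genes, had none of the E2F letters in these windows. It had instead 3 CCAAT boxes before the start listed at chr2:10122739, each followed by the same letters GGGAAGGG. TK1 had 2 CCAAT boxes on the opposite strand before its start at chr17:78187052, and SAMHD1 had 2 that lie 11 bases apart. These 3 genes are shown because each has at least 2 CCAAT boxes before 1 start, whereas RRM2 and TK1 fell and SAMHD1 rose with both drugs. CCAAT letters were in 39.7% of all genes in the table, and CCAAT or ATTGG is in capitals. A match is a match of letters and was not tested as a binding site.
RRM2, chr2:10122604-10122632, plus strand: ggcaaggcgcagCCAATgggaagggtcgg
RRM2, chr2:10122634-10122662, plus strand: ggcatggcacagCCAATgggaagggccgg
RRM2, chr2:10122661-10122689, plus strand: ggggcaccaaagCCAATgggaagggccgg
TK1, chr17:78187113-78187141, minus strand: ggccgggcgctgATTGGccccatggcggc
TK1, chr17:78187082-78187110, minus strand: ggccggctcgtgATTGGccagcacgccgt
SAMHD1, chr20:36951741-36951769, minus strand: ctgcgcaggaggCCAATaggctgccaata
SAMHD1, chr20:36951730-36951758, minus strand: gccaataggctgCCAATactccttggact

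RRM1 had 1 CHR and 1 CCAAT match, DUT 2 CHR matches, the other RRM2 start 1 CCAAT match, and DCTPP1 no match to any of these letters. Among the genes with E2F letters, TYMS fell 51.5-fold, DUT 13.5-fold and DCK 2.98-fold with both drugs.

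RRM2, the S phase small subunit of ribonucleotide reductase, rose with ATRA alone and fell with either treatment that held CDK4/6i. Its CPM was 452, 448 and 424 in the non-treated libraries, 613, 620 and 625 with ATRA, 18.6, 15.2 and 17.0 with CDK4/6i, and 10.5, 8.29 and 11.1 with both drugs. No library of a group overlapped any library of another. The log2 fold change against non-treated cells was 0.49 (SE 0.0382) with ATRA, -4.70 (SE 0.0542) with CDK4/6i and -5.47 (SE 0.0640) with both drugs, with adjusted p of 3.8e-16, 1.6e-49 and 1.0e-50. The lowest library with both drugs held 93 counts of RRM2, so the gene remained above the 3-count floor in every library. RRM2 lies at chr2:10122568-10211010 on hg38, in 14 exon blocks, and shares 97 exon bases with LOC105373424 on the opposite strand. That gene had 258 counts in all libraries together against 55325 for RRM2, and 3 RRM2 pseudogenes had 113.

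RRM1, the large subunit (chr11:4094685-4138932), did not share the rise of RRM2 with ATRA. Non-treated libraries held 239, 241 and 223 CPM and ATRA libraries 225, 222 and 244 CPM, so these groups overlapped. The log2 fold change was -0.02, with a 95% interval of 0.929-fold to 1.04-fold and an adjusted p of 0.640. With CDK4/6i the libraries fell to 51.9, 47.5 and 48.6 CPM and with both drugs to 20.2, 19.7 and 23.7 CPM, and these groups were separate from each other and from the rest. The log2 fold changes were -2.25 (SE 0.0479) and -3.46 (SE 0.0592).

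RRM2B, the small subunit used outside S phase (chr8:102204501-102238961), rose with each drug and most with both, while RRM1 and RRM2 fell in both groups with CDK4/6i. Its libraries held 23.1, 21.3 and 22 CPM without treatment, 31.9, 34.3 and 30.7 with ATRA, 31.3, 31.8 and 30.1 with CDK4/6i, and 58.9, 55.2 and 57.3 with both drugs. The groups with either drug alone overlapped and lay above the non-treated libraries, and the group with both drugs lay above all others. The log2 fold change was 0.54 (SE 0.0686) with ATRA, 0.49 (SE 0.0688) with CDK4/6i and 1.37 (SE 0.0670) with both drugs. Each of these rises passed the test, with adjusted p of 1.2e-09, 3.3e-08 and 3.4e-24. RRM2B between the single drugs differed by a log2 value of 0.06, with an interval of 0.950-fold to 1.14-fold and an adjusted p of 0.438.

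The balance between the small subunits turned over. Per kilobase of exon, RRM2B made up 4.32% ± 0.190 (SD, n = 3) of the RRM2 and RRM2B counts in non-treated cells and 4.48% ± 0.254 with ATRA. Its share was 62.3% ± 2.68 with CDK4/6i and 83.8% ± 1.71 with both drugs. Non-treated and ATRA libraries overlapped in this share, with RRM2 1.40-fold and RRM2B 1.46-fold higher with ATRA. The ratio of RRM2 to RRM2B within a library, a quantity that does not depend on scaling between libraries, was 22.1, 21.3, 0.604 and 0.192 in the 4 groups in that order. It differed between the groups (exact permutation F test over 369600 assignments, two-sided, p = 0.00026, adjusted p = 0.00026 over 5 ratios).

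Against its partner RRM1, RRM2 rose with ATRA and fell with CDK4/6i. The ratio per kilobase was 1.47 to 1.499 in non-treated libraries, 2.02 to 2.21 with ATRA, 0.252 to 0.283 with CDK4/6i and 0.332 to 0.409 with both drugs. The 4 groups did not overlap, and the ratio was higher with both drugs than with CDK4/6i alone because RRM1 fell further than RRM2 when ATRA was added. The exact permutation F test over the 4 groups together gave p = 6.5e-05 (adjusted p = 8.1e-05), which is the smallest p this design allows.

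TYMS, thymidylate synthase (chr18:657653-673578), was among the strongest falls. It had 168, 165 and 156 CPM in non-treated libraries, 135, 135 and 147 with ATRA, 7.78, 7.94 and 8.08 with CDK4/6i, and 2.66, 3.30 and 3.47 with both drugs. All groups were separate. The log2 fold change was -0.23 (SE 0.0428, adjusted p = 7.2e-06) with ATRA, -4.36 (SE 0.0639) with CDK4/6i and -5.69 (SE 0.0842) with both drugs. TYMS shares 967 exon bases, 38.2% of its exon length, with ENOSF1 on the opposite strand. Whether reads were counted by strand is not stated, and ENOSF1 had 3763 counts in all against 15884 for TYMS. With both drugs ENOSF1 had 185 counts over the 3 libraries, more than TYMS with 29, 37 and 42, so the TYMS counts there may hold reads of ENOSF1.

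DUT, which removes dUTP and yields the substrate of TYMS (chr15:48331095-48343373), fell less. Its level was 349, 333 and 336 CPM in non-treated libraries, 256, 259 and 247 with ATRA, 74.0, 75.6 and 75.1 with CDK4/6i, and 23.0, 24.6 and 27.5 with both drugs. The log2 fold changes were -0.42 (SE 0.0366), -2.18 (SE 0.0408) and -3.76 (SE 0.0513), and no groups overlapped. The ratio of TYMS to DUT per kilobase was accordingly 0.439 in non-treated cells, 0.500 under ATRA, 0.0969 under CDK4/6i and 0.114 with both drugs (exact permutation F test, p = 6.5e-05, adjusted p = 8.1e-05). The 8 DUT pseudogenes in the table had 33 counts in all, against 34973 for DUT.

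TK1 and DCK, the cytosolic salvage kinases for thymidine and deoxycytidine, both rose with ATRA and fell with CDK4/6i, but by unequal amounts. TK1 (chr17:78174079-78187204) held 95.9, 91.0 and 95.2 CPM without treatment, 118, 114 and 122 with ATRA, 5.19, 5.19 and 5.97 with CDK4/6i, and 2.11, 2.23 and 1.74 with both drugs. DCK (chr4:70993649-71030914) held 106, 103 and 101 CPM without treatment, 142, 136 and 146 with ATRA, 59.1, 56.2 and 57.2 with CDK4/6i, and 33.8, 33.6 and 36.4 with both drugs. Neither gene had overlapping groups. TK1 changed by log2 values of 0.33 (SE 0.0464), -4.11 (SE 0.0727) and -5.54 (SE 0.0988), with 21 to 25 counts per library left with both drugs. DCK changed by 0.45 (SE 0.0426), -0.84 (SE 0.0464) and -1.58 (SE 0.0538). The ratio of TK1 to DCK per kilobase went from 1.38 in non-treated cells and 1.27 with ATRA to 0.144 with CDK4/6i and 0.0884 with both drugs (exact permutation F test, p = 6.5e-05, adjusted p = 8.1e-05).

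SAMHD1, the triphosphohydrolase (chr20:36889773-36951708), followed ATRA rather than CDK4/6i. It measured 54.6, 48.3 and 49.7 CPM in non-treated libraries, 160, 159 and 162 with ATRA, 47.9, 45.0 and 48.0 with CDK4/6i, and 128, 136 and 143 with both drugs. Both groups with ATRA lay far above both groups without it. The log2 fold change was 1.66 (SE 0.0475, adjusted p = 2.0e-33) with ATRA and 1.42 (SE 0.0496, adjusted p = 2.5e-30) with both drugs. With CDK4/6i alone it was -0.12 (adjusted p = 0.0633, with an interval of 0.857-fold to 0.995-fold), although the libraries did not overlap. Without replicate 2 of the non-treated cells that difference passed the test at -0.15 (adjusted p = 0.0301). The mature myeloid markers, given above, were also higher in both groups with ATRA, and their part in the SAMHD1 result was not tested.

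DCTPP1, the dCTP pyrophosphatase (chr16:30423615-30430030), fell with each drug. It held 150, 143 and 134 CPM without treatment, 73.1, 73.5 and 78.0 with ATRA, 88.3, 83.3 and 83.9 with CDK4/6i, and 46.5, 51.3 and 52.3 with both drugs. The groups were separate, and DCTPP1 alone among the 9 genes was lower with ATRA than with CDK4/6i (log2 difference -0.19, SE 0.0485, adjusted p = 6.7e-04). Against non-treated cells the log2 fold changes were -0.92 (SE 0.0466), -0.74 (SE 0.0459) and -1.50 (SE 0.0522).

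**Figure D2:**
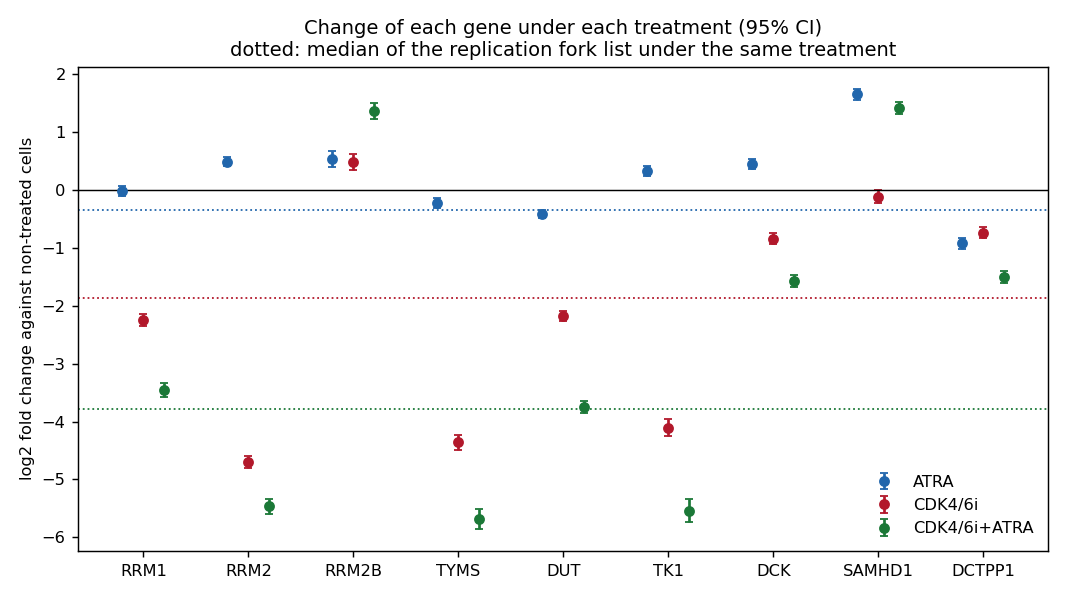
Log2 fold change of each gene against non-treated cells under each treatment, with 95% intervals, and dotted lines at the median of 31 replication fork genes under the same treatment. RRM2, TYMS and TK1 lie below the dotted lines of CDK4/6i and CDK4/6i+ATRA, while RRM2B and SAMHD1 lie above 0 with CDK4/6i+ATRA.

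Counted over the 9 genes, ATRA alone lowered 3 (TYMS, DUT, DCTPP1) and raised 5 (RRM2, RRM2B, TK1, DCK, SAMHD1), against 35.5% lower and 32.1% higher of all tested genes. CDK4/6i alone lowered 7 and raised 1, RRM2B, against a background of 27.9% and 28.3%. The median log2 fold change of the 9 genes was 0.33 with ATRA and -2.18 with CDK4/6i, where that of all tested genes was -0.028 and 0.020. In ATRA-treated against CDK4/6i-treated cells, 7 were higher and 1 lower, against 35.2% and 35.6%.

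Adding ATRA to CDK4/6i lowered 7 of the genes further and raised RRM2B and SAMHD1, against 39.5% lower and 39.1% higher of all tested genes. DUT fell by a further 2.98-fold, TK1 by 2.69-fold, TYMS by 2.51-fold, RRM1 by 2.32-fold and RRM2 by 1.71-fold. SAMHD1 rose 2.89-fold and RRM2B 1.84-fold. Adding CDK4/6i to ATRA lowered 8 and raised RRM2B, against 32.8% and 36.9%. With scaling by library size alone, the share of higher genes among all called genes went from 49.8% to 36.7% against CDK4/6i and from 53.0% to 31.6% against ATRA, while the counts among the 9 genes stayed the same. Against ATRA alone, SAMHD1 was lower by a log2 value of -0.24 (SE 0.0442, adjusted p = 5.0e-06), and RRM2 was 62.1-fold lower.

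The ratio of RRM2 to SAMHD1 per kilobase, which sets the S phase subunit of synthesis against hydrolysis, was lowered by each drug and most by both. It was 10.9 to 12.2 in non-treated libraries, 5.04 to 5.12 with ATRA, 0.443 to 0.510 with CDK4/6i and 0.0803 to 0.107 with both drugs. The groups were separate, with the geometric mean falling 2.25-fold, 24.2-fold and 119-fold. The 4 groups together differed (exact permutation F test, p = 6.5e-05, adjusted p = 8.1e-05), and the fall with each drug was not tested by itself. With ATRA alone the ratio fell although RRM2 rose, since SAMHD1 rose more.

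**Figure D3:**
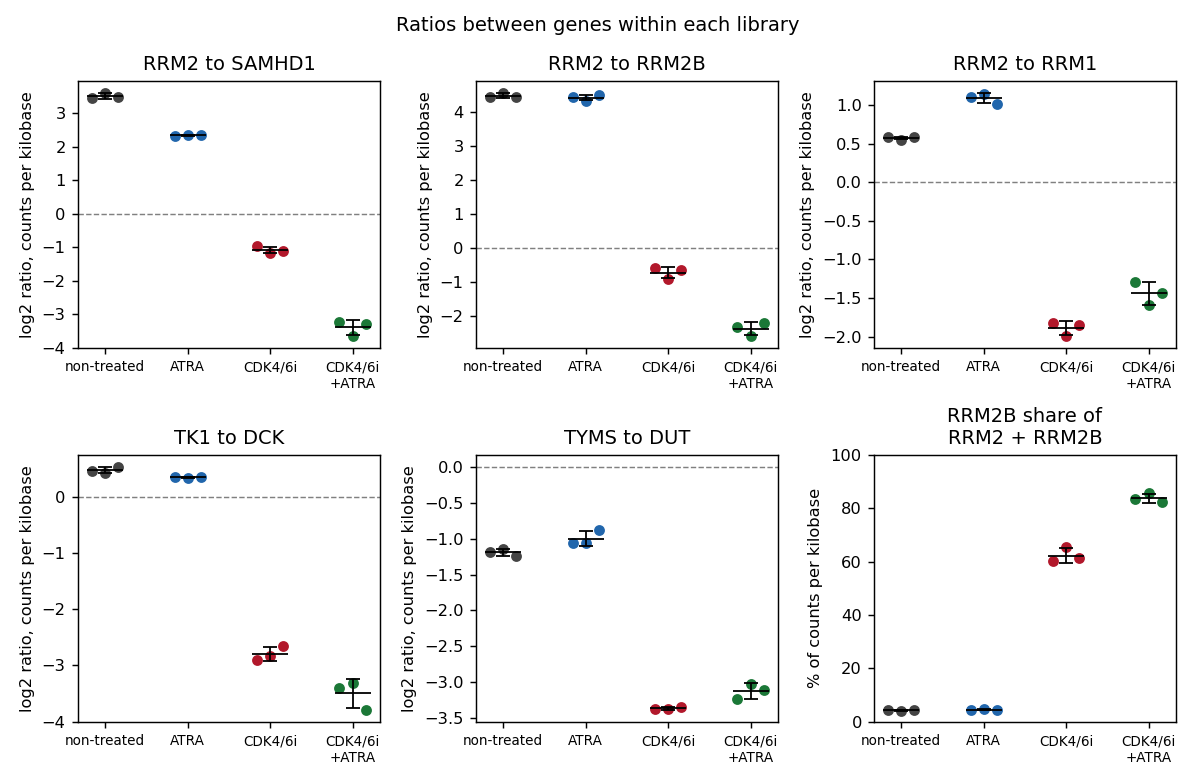
Log2 ratio of counts per kilobase between pairs of genes within each library, and the share of RRM2B in RRM2 plus RRM2B in percent, with 1 point per library, bars at the mean and whiskers of 1 SD (n = 3). RRM2 is above SAMHD1 and RRM2B (above the dashed line at 0) in non-treated and ATRA libraries and below both in the libraries with CDK4/6i.

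The order of the genes by RPKM was rearranged. In non-treated cells the order was DUT (147), DCTPP1 (100.2), RRM2 (97.3), RRM1 (65.4), TYMS (64.4), TK1 (55.5), DCK (40.1), SAMHD1 (8.53) and RRM2B (4.39 RPKM). The libraries of DCTPP1 and RRM2 overlapped, as did those of RRM1 and TYMS. With CDK4/6i+ATRA the order was DCTPP1 (35.3), SAMHD1 (22.8), DCK (13.4), RRM2B (11.3), DUT (10.8), RRM1 (5.92), RRM2 (2.19), TYMS (1.24) and TK1 (1.19 RPKM). There, RRM2B overlapped DUT and TYMS overlapped TK1, and SAMHD1 and RRM2B had moved ahead of RRM1, RRM2, TYMS and TK1.

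Departure from additivity was measured by the interaction, the log2 fold change with both drugs minus the sum of those with either drug. For 6 genes the combined fall was deeper than that sum and for RRM2B the combined rise was larger, against 27.0% of all tested genes with a negative and 24.5% with a positive interaction. Positive values made up 47.5% of all called interactions, and 18.5% with scaling by library size alone. The median interaction was -1.16 over the 9 genes and -0.022 over all tested genes. TK1 had the lowest value, -1.76 (SE 0.176, adjusted p = 3.9e-12), with 2.02 CPM observed where the sum gave 6.84. RRM2 (-1.26), RRM1 (-1.19), DCK (-1.18), DUT (-1.16) and TYMS (-1.10) were each 2.14-fold to 2.39-fold below it. For RRM2B the sum gave 45.3 CPM and 57.1 were observed (0.34, SE 0.0938, adjusted p = 0.00216). With scaling by library size alone the RRM2B value was 0.018 (adjusted p = 0.889), and this call did not hold there.

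SAMHD1 and DCTPP1 did not pass the interaction test in the main setting. SAMHD1 had 135.8 CPM where the sum gave 147.9 (-0.12, 95% interval 0.833-fold to 1.01-fold, adjusted p = 0.137). For DCTPP1 50.01 CPM were observed and the sum gave 44.8 (0.16, interval 1.01-fold to 1.23-fold, adjusted p = 0.0656). Both calls moved with the scaling between libraries or with the library left out, as given in the closing section.

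**Figure D4:**
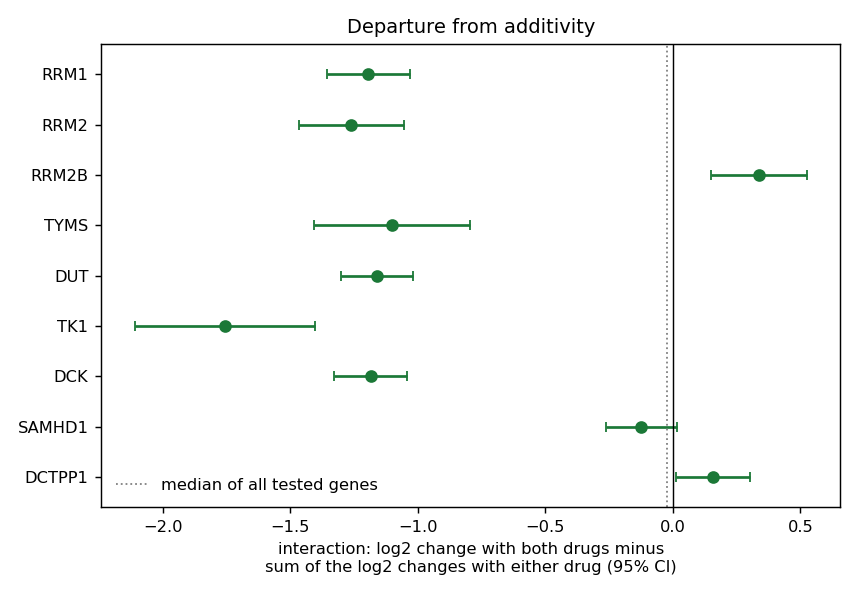
Interaction of the drugs on the log2 scale for each gene, with 95% intervals, a solid line at 0 and a dotted line at the median of all tested genes (-0.022). TK1, RRM2, RRM1, DCK, DUT and TYMS lie between -1.76 and -1.10, RRM2B lies at 0.34, and SAMHD1 and DCTPP1 lie near 0.

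ATRA changed direction with CDK4/6i for 3 genes. RRM2, TK1 and DCK were raised by ATRA alone (0.49, 0.33 and 0.45) and lowered when it was added to CDK4/6i (-0.77, -1.43 and -0.73 on the log2 scale), and each difference passed the interaction test. RRM2B and SAMHD1 were raised by ATRA in both settings, while TYMS, DUT and DCTPP1 were lowered in both.

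The genes around these 9 in nucleotide metabolism mostly fell with both drugs. All 6 tested genes of de novo pyrimidine synthesis were lower, against 40.7% of all tested genes (median log2 fold change -2.47), from CAD, the enzyme of the opening steps (-4.19), and DHODH (-3.08) to UMPS (-1.71) and CMPK1 (-0.14). All 12 tested genes of de novo purine synthesis were lower (median -2.40), with PAICS at -4.12, PPAT at -3.74, IMPDH1 at -1.58 and ADSS2 at -0.78. In the folate cycle, which feeds TYMS with one-carbon units, 11 of 12 were lower (median -1.73), with MTHFD1L at -4.90, SHMT1 at -4.55 and MTHFD2L at -0.62. Against 35.5% of all tested genes, ATRA alone lowered 5 of 6, 12 of 12 and 9 of 12 genes of these lists (medians -0.81, -0.997 and -0.74), and against 27.9%, CDK4/6i alone lowered 4, 9 and 10 and raised the purine gene IMPDH2 by 0.20 (medians -0.33, -0.39 and -0.45).

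The lists that follow are read against the 40.7% lower and 41.0% higher of all tested genes with both drugs. Nucleotide kinases had 9 of 10 genes lower and 1 higher (median -1.46). DTYMK, which phosphorylates the product of TYMS and TK1, was at -3.78, AK4 at -4.12, NME6 at -0.44 and GUK1 at 0.31. Among hydrolases and enzymes that clean the pool, 8 of 11 were lower and 2 higher (median -1.47), with UNG, which removes uracil from DNA, at -4.96, NT5M at -2.84, NT5C2 at 1.29 and NUDT18 at 1.69. Nucleoside transporters had 5 of 7 lower and 1 higher (median -1.12), with SLC29A2 at -4.86, SLC29A1 at -4.19, SLC25A33 at -0.53 and SLC28A3 at 0.49. Salvage and breakdown had 8 of 15 lower and 5 higher (median -0.11), shares near those of all tested genes. There UCK2 stood at -2.76 and ADA2 at -2.21, while the phosphorylases TYMP and UPP1, which split thymidine and uridine, stood at 3.01 and 7.52.

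**Figure D5:**
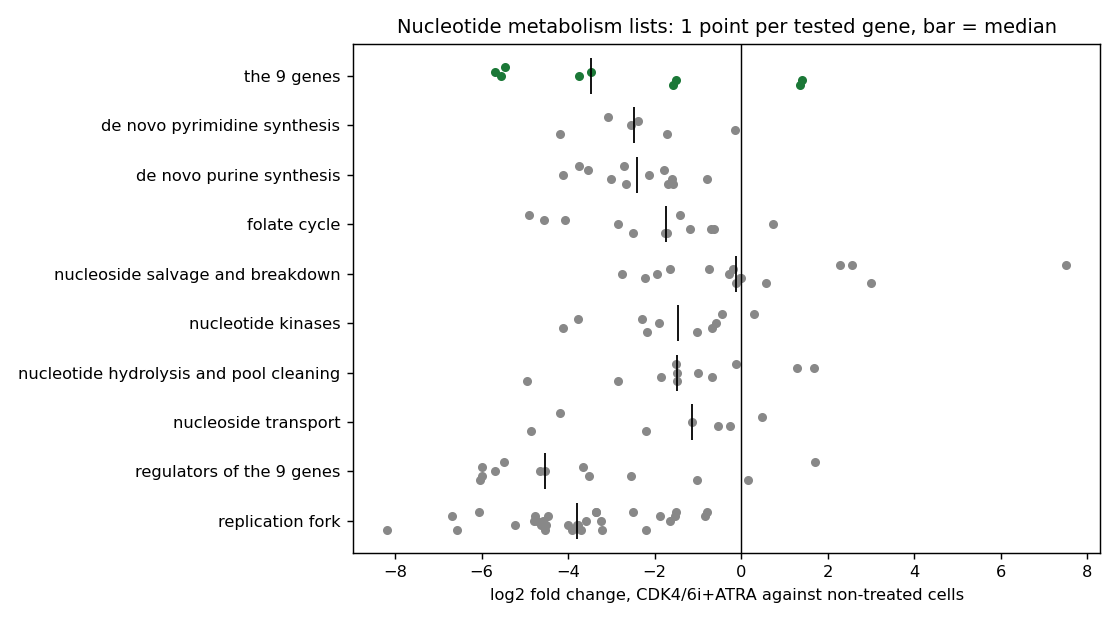
Log2 fold change of CDK4/6i+ATRA-treated over non-treated cells for each tested gene of the nucleotide metabolism lists, with 1 point per gene (spread vertically for sight) and a bar at each list's median. The salvage and breakdown list is spread on both sides of 0 (median -0.11), while the replication fork list lies wholly below 0 (median -3.78).

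The replication fork uses the deoxynucleotides. All 31 tested fork genes were lower with both drugs, against 40.7% of all tested genes (median -3.78), with POLE2 at -8.18, GINS2 at -6.68, RPA1 at -0.83 and RPA2 at -0.79. With CDK4/6i alone all 31 were lower, against 27.9% (median -1.86). With ATRA alone 24 were lower and 1 higher, against 35.5% and 32.1% (median -0.35), while RRM2 and TK1 rose. RRM2, TYMS and TK1 lay more than 2 log2 units below the fork median with CDK4/6i, whereas RRM1 and DUT lay close to it. Of 13 tested regulators of the 9 genes, 11 were lower and 2 higher with both drugs, against 40.7% and 41.0% (median -4.53). CDK1, which phosphorylates SAMHD1, was at -6.04 and E2F1 at -5.99, while FZR1, a coactivator of the anaphase-promoting complex, was at 0.16 and the transcription factor FOXO3 at 1.72.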

How the data were processed

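HL60 RNA-Seq libraries were prepared with a directional kit. The authors trimmed reads with Trimmomatic 0.33, aligned them to hg38 with STAR 2.7.11a with the annotation of NCBI RefSeq, and deposited raw counts per gene as whole numbers without normalization. The paper names RSEM, the table has the layout of featureCounts, and counting by strand is not stated. Their differential expression was tested with DESeq2, and no comparison columns were used here.

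The 9 genes, the lists, the tests and the rule for list genes named (the 2 highest and 2 lowest log2 fold changes called with both drugs) were chosen with earlier results of these data known. Some genes that the rule covers are left out of the text. Genes passing filterByExpr (13318 of 59251) were normalized by TMM and tested with edgeR 4.0.16 (quasi-likelihood F test, 4 groups, 8 residual degrees of freedom, Benjamini-Hochberg over all genes, threshold 0.05) in R 4.3.3. The biological coefficient of variation was 3.70%, and intervals are 95%. Libraries of a group differed by more than sampling noise (chi-square per degree of freedom 1.83 to 6.49). Reads lack molecular identifiers, so floors cover counting error only. Ratios used an exact permutation F test over the 4 groups together (python 3.11.15, scipy 1.17.1). No 2 groups were tested against each other for a ratio, where the smallest exact p would be 0.1. Likeness was Pearson's r of log2(CPM + 1) over genes with a mean of at least 5 CPM. Alternatives were other scalings and filters, DESeq2 1.42.0, a replicate block, only the groups compared, removal of genes also on alternate contigs and leaving out each library. Tests were checked on simulated data.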

Additional observations from a re-analysis of the deposited data

Results flagged for a closer look

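The effect of ATRA differed between cells without and with CDK4/6i for 3 of the 9 genes and turned from a rise to a fall (edgeR's interaction test). For RRM2 the log2 effect was 0.49 alone and -0.77 with CDK4/6i, a difference of -1.26 (adjusted p = 6.6e-15). For TK1 the effects were 0.33 and -1.43, a difference of -1.76 (adjusted p = 3.9e-12). For DCK they were 0.45 and -0.73, a difference of -1.18 (adjusted p = 1.1e-19). All 3 ATRA libraries were above all 3 non-treated libraries for each of these genes, and all 3 CDK4/6i+ATRA libraries below all 3 CDK4/6i libraries. The cause was not tested.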

How the results depend on the processing

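All 70 ratio tests kept their direction and their side of the threshold under the alternatives. All 139 counts of called genes among the 9 and all 63 list counts stayed within 1.5 times. These counts are totals of lower and higher calls, so this check does not cover direction. Of the values of single genes, 1239 kept their call and 12 did not. Among the former, the uncalled change of RRM1 with ATRA turned slightly positive in 6 alternatives (0.0039 to 0.027, adjusted p of 0.520 to 0.949). With library size alone the interaction of DCTPP1 turned to -0.16 (adjusted p = 0.0417), that of SAMHD1 was called at -0.44 (4.8e-07) and that of RRM2B was lost at 0.018 (0.889), so that 8 of the 9 genes had a negative call in place of 6. The same scaling moved the median interaction of all genes from -0.022 to -0.34 and the share of positive calls from 47.5% to 18.5%. It moved the median with CDK4/6i+ATRA from 0.018 to -0.25 against non-treated cells, from 0.044 to -0.26 against ATRA and from 0.0014 to -0.28 against CDK4/6i. Relative to the median of all genes, DCTPP1 and RRM2B stayed positive in the interaction. With no filter RRM2B (0.25, adjusted p = 0.0643) was not called and SAMHD1 was (-0.21, 0.0312). The DCTPP1 interaction was called at 0.16 with at least 10 counts in every library, and at 0.18 to 0.20 without replicate 3 of the non-treated or ATRA libraries, or without replicate 1 of the CDK4/6i or CDK4/6i+ATRA libraries. That of SAMHD1 was called at -0.18 without non-treated replicate 1. The replicate block changed no call among the 9 genes. With ATRA it left 3 genes lower and 5 higher, as in the main setting, where 35.5% of all tested genes were lower and 32.1% higher. Same-numbered libraries of different groups did not deviate together (r of -0.114 to 0.0702 over 18 pairs, none over 0.1), and 0 of 12 libraries had its highest mean r with the libraries of its own number. With both drugs TK1 and TYMS had only 21 to 25 and 29 to 42 counts per library, where counting error is largest.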

Other observations

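DCK activates the leukemia drug cytarabine, and SAMHD1 is known to cleave its triphosphate. The ratio of DCK to SAMHD1 per kilobase, chosen after its values were seen and so not tested, was 4.72 ± 0.228 (SD, n = 3) in non-treated cells, 2.04 ± 0.0564 under ATRA, 2.84 ± 0.0689 under CDK4/6i and 0.591 ± 0.0186 with both drugs (CDK4/6i+ATRA). The libraries of the 4 groups did not overlap. CDA, which deaminates cytarabine, was chosen in the same way and was at 1.70 ± 0.558 CPM in non-treated cells, 5.36 ± 0.530 under ATRA, 2.09 ± 0.314 under CDK4/6i and 9.96 ± 0.828 with both drugs. Its rise with ATRA (log2 fold change 1.66, adjusted p = 8.4e-10) and with both drugs (2.56, adjusted p = 1.4e-16) passed edgeR's test. TK2, the mitochondrial counterpart of TK1 and likewise chosen after its values were seen, was at 3.98 ± 0.0777 CPM in non-treated cells and rose to 16.7 ± 1.03 with ATRA (2.07, adjusted p = 9.9e-21), where TK1 rose too. It rose to 7.98 ± 0.376 with CDK4/6i (1.00, adjusted p = 1.2e-08) and 19.3 ± 1.96 with both drugs (2.28, adjusted p = 2.8e-22), where TK1 fell. UPP1, the uridine phosphorylase, was at 0.373 ± 0.191 CPM in non-treated cells, 10.4 ± 1.11 under ATRA, 0.175 ± 0.0704 under CDK4/6i and 70.8 ± 1.31 with both drugs.

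Over the 12 libraries, whose points fall into 4 treatment groups and so are not independent, the genes most like RRM2 in log2(CPM + 1) were MKI67, FOXM1 and CDK1 (Pearson's r of 0.998 each among 9212 genes). Those most like RRM2B were PNPLA6 (0.994), TRIB2 (0.993) and TMEM63B (0.993), and those most like SAMHD1 were APBB1 (0.996), ADGRG5 (0.995) and B3GNT8 (0.995). Within the 9 genes, RRM2 was closest to TK1 (0.996), RRM2B ran opposite to DCTPP1 (-0.958), and SAMHD1 had an r of 0.094 with RRM2.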
